A study of Homo sapiens with 6 samples.

Results

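Amino acid transporters are membrane proteins that move amino acids between blood, cytosol and lysosome. The genes described here are the protein-coding genes of the deposited count table whose names begin with SLC1A, SLC3A, SLC6A, SLC7A, SLC36A, SLC38A or SLC43A and a digit, with SLC7A11 left out. The name rule takes 59 of 58735 genes in the table. It used no measured value, but the members were chosen with earlier results of these data known. One of the 59, SLC7A6OS, is not a transporter: it is a gene that lies opposite SLC7A6 and carries its name. The members were read in 6 RNA-seq libraries of HepaRG, an established human hepatic line whose bipotent cells mature under DMSO into cells resembling hepatocytes and bile duct cells. DMSO stood at 1.8%, the siRNA step lasted 48 h, and a mixture of 800 µM oleic with 400 µM palmitic acid followed for the last 24 h, in both groups alike. The siRNAs of the study target STAT3, which relays cytokine signals to the nucleus as a transcription factor, and PTPRD, a tyrosine phosphatase of the cell membrane. The libraries are labelled PTPF (n = 3) and STATF (n = 3). The labels do not spell these names out, and no library with control siRNA was analysed here. Whether replicates came from separate cultures is not stated, so each p-value rests on library-to-library spread that may be technical.

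Liver cells take up glutamine, alanine, arginine and other amino acids from portal blood, use them for urea, glucose and plasma protein synthesis, and release others. Much of this traffic runs through sodium-coupled carriers of the SLC38 and SLC1 families and through heteromeric exchangers, in which a light chain of the SLC7 family does the transport and a heavy chain of the SLC3 family brings it to the cell surface. Further members, such as SLC38A9 and SLC36A1, sit on the lysosome, where amino acid levels are reported to the growth kinase mTORC1. Several carrier genes are transcribed more when amino acids are scarce, through the transcription factor ATF4.

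Gene counts totalled 33225627 to 40796767 per library, and members took 66352 to 79312 of them. STAT3 was at 443 ± 12.2 CPM (counts scaled to the library total with the TMM factor; SD, n = 3) in PTPF and 119.5 ± 10.6 CPM (SD, n = 3) in STATF libraries (log2 fold change 1.89, edgeR adjusted p = 2.47e-18). PTPRD was at 11.5 ± 1.36 and 11.5 ± 0.602 CPM (SD, n = 3 each), with groups that overlapped, and every direction below is between libraries by label. Hepatocyte markers were all detected (16 of 16 tested), with 2 higher and 7 lower in PTPF libraries, 1 and 4 respectively by more than 1.5-fold. Of these markers 56.2% were called, beside 21.6% of all genes tested, and their median log2 fold change was -0.19. Their summed level ran the other way, at 42500 to 49360 CPM in PTPF and 40550 to 41460 CPM in STATF libraries. Of 10 biliary and progenitor markers 6 were tested, with 1 higher and 2 lower (50% called). Their sum ran from 302.2 to 336.5 CPM in PTPF and from 289.9 to 307.4 CPM in STATF libraries, and EPCAM was listed at 0. Of 12 mesenchymal, endothelial and immune markers 6 were tested, with 1 higher and 2 lower (50% called), and 7 had means under 1 CPM in both groups. Their sum was 74.4 to 80.2 CPM in PTPF and 96.6 to 101 CPM in STATF libraries, with CD3E at 0 and 1 count of PTPRC in all. Mitochondrial genes took 17.6% to 18.5% of counts in PTPF and 18.7% to 19.5% in STATF libraries, and with them left out 15 members were called as well. The part of these marker differences in the results below was not tested. In bulk RNA, fewer cells of a type and less RNA per cell cannot be told apart.

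The smallest adjusted p-values belonged to 4 carriers. SLC7A7, the light chain that exports cationic amino acids, and SLC38A3, a glutamine carrier of hepatocytes, were about 2 times lower in PTPF libraries. SLC43A2, which carries branched-chain amino acids and phenylalanine out of cells, and SLC1A3, a glutamate carrier, were 1.66-fold and 1.62-fold higher. Of the 59 members 36 had enough counts to be tested. Of these, 15 were called by edgeR at an adjusted p under 0.05, with 10 of them higher and 5 lower in PTPF libraries. Over all 17844 genes tested the share called was 21.6%, with 10.1% higher and 11.6% lower. Of the members tested, 41.7% were called. A difference of more than 1.5-fold was seen in 5 of the 15 called members, 3 higher and 2 lower, where 5.32% of all genes tested were called with such a difference (2.11% higher, 3.21% lower). The median log2 fold change of the tested members was 0.07, beside 0.00 over all genes (0.0016 before rounding), and their median size without sign was 0.27, beside 0.16. In 20 of 36 members the groups did not overlap, beside 35.7% of all genes. Among members at a mean of at least 10 CPM, 13 of 25 were called, beside 31.4% of all genes at that level. With library totals as the only scaling, which lowers the median of all genes to -0.06, the members split into 7 higher and 9 lower in place of 10 and 5, so that the balance of directions rests on the scaling.

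**Figure D1:**
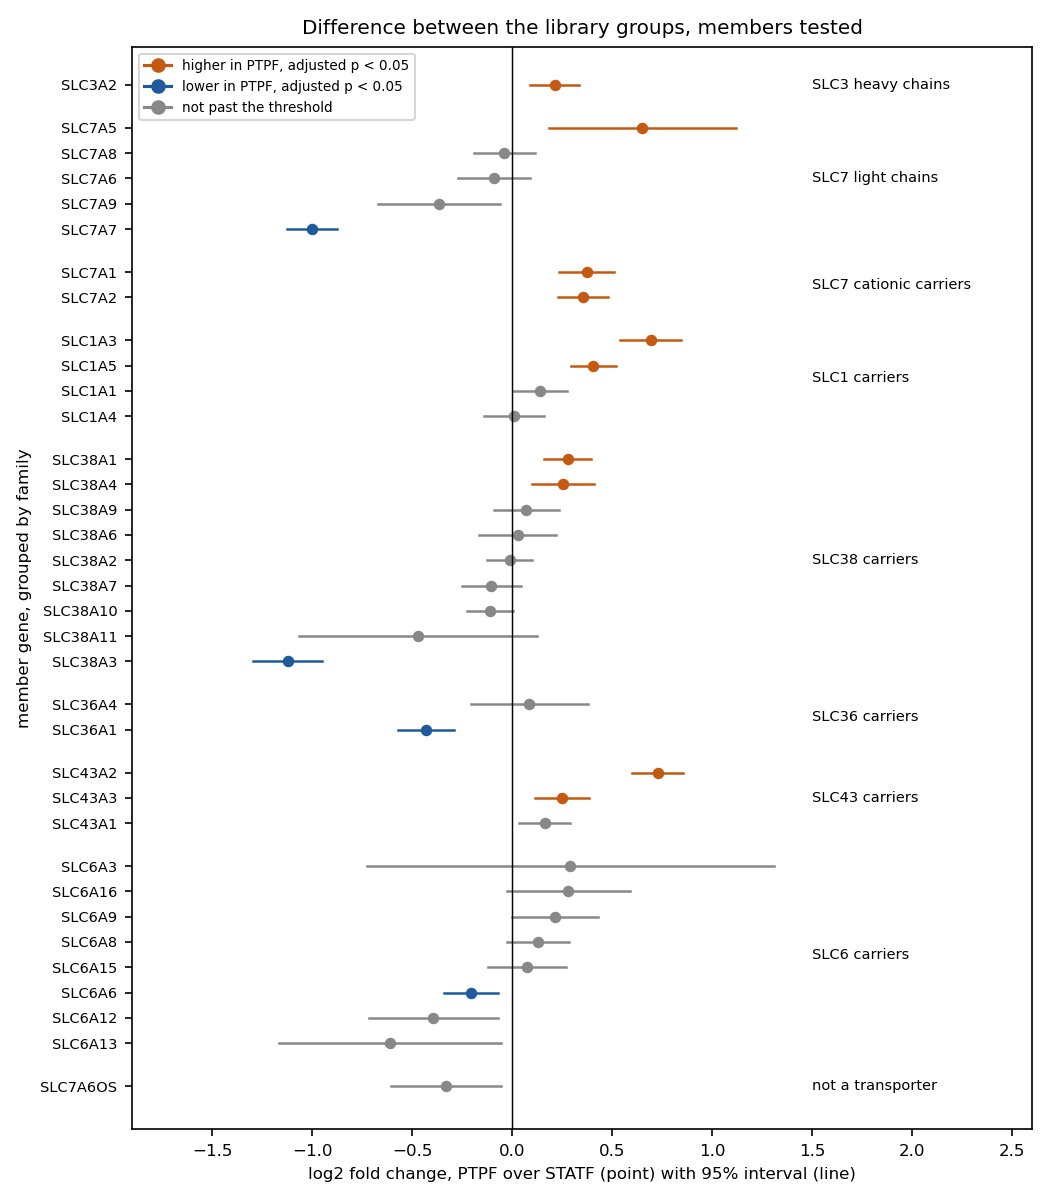
Log2 fold change of PTPF over STATF libraries (x axis, points) with its 95% interval (lines) for 35 members tested, grouped by family (y axis); orange points passed as higher, blue as lower and grey did not pass. SLC38A3 (-1.12) and SLC7A7 (-1.0) lie farthest to the left, and SLC43A2 (0.73), SLC1A3 (0.69) and SLC7A5 (0.65) farthest to the right, the last with a wide interval.

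The sequences before the start of 3 of these genes are shown because they differed by more than 1.5-fold on over 1000 counts and have an entry among the RefSeq promoters used here (GRCh38.p14), in which 28 of the 36 tested members were found. Each is 250 bases long, ends at the base before the RefSeq start and is written 5′ to 3′ on the strand of the gene. Capitals mark matches on either strand to 3 motifs: the core of the amino acid response element bound by ATF4 (TGATGNAA), the STAT site (TTCNNNGAA) and the core of the interferon response element bound by IRF factors (TTTC, any 2 bases, TTTC), the last added after the values were seen. No matches overlapped in these windows. The SLC7A7 window is chr14:22819792-22820041 on the minus strand, and its RefSeq start is 5 bases from a GENCODE 29 transcript start. The SLC43A2 window is chr17:1605035-1605284 on the minus strand, 51 bases from such a start. Both RefSeq starts, at 22819791 and 1605034, lie inside the annotated genes, whose 5′ ends are at 22829820 and 1628886. For each gene the RefSeq start listed first was used, and whether these cells use it was not tested. The SLC1A3 window is chr5:36596338-36596587 on the plus strand, and the nearest GENCODE 29 transcript start of that gene is 9767 bases away, so this window belongs to a transcript start that GENCODE 29 does not give.
SLC7A7: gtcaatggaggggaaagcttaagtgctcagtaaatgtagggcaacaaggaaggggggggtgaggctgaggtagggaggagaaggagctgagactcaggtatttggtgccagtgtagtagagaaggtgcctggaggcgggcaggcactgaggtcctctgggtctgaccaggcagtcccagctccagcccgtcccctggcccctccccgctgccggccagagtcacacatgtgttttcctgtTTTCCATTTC
SLC43A2: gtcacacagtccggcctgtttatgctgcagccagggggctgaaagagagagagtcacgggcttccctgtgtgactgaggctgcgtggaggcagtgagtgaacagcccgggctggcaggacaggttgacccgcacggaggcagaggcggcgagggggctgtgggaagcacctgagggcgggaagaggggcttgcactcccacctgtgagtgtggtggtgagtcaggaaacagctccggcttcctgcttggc
SLC1A3: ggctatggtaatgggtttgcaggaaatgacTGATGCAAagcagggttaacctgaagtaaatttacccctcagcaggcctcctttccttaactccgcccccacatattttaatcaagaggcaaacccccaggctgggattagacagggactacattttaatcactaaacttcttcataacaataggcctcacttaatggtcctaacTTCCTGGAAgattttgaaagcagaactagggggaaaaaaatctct

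In SLC7A7 the last 10 bases before this internal RefSeq start, TTTCCATTTC, matched the interferon response core. This motif was found in 3.07% of 27305 promoters of the same length and in 2 of 28 members, SLC7A7 and SLC38A4. SLC1A3 held TGATGCAA from 220 to 213 bases before its start and TTCCTGGAA from 45 to 37 bases before it. The amino acid response core was in 3.19% of all promoters and in 1 of 28 members. The STAT site was in 6.78% of all promoters and in 3 of 28 members, SLC1A3, SLC3A2 (TTCTTTGAA) and SLC38A1 (TTCTATGAA). The SLC43A2 window held none of the 3 motifs. A match is a run of letters and was not tested for binding.

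Levels were compared between genes per length, as RPKM, that is CPM divided by the deposited gene length in kilobases, the summed length of all annotated exons. The heavy chain SLC3A2 ranked first at 50.8 ± 4.88 RPKM over the 6 libraries (SD), next to SLC38A2, a carrier of small neutral amino acids, at 48.1 ± 1.18 RPKM. SLC1A5, the main glutamine exchanger of growing cells, had 37.6 RPKM, SLC38A10, a little-studied member of its family, 30.0, and SLC7A2, the arginine carrier typical of liver, 29.8. These 5 genes made up 59.6% to 62.5% of the summed RPKM of all members in each library. That sum was 333, 336.5 and 334.5 in PTPF and 312, 311 and 306.5 in STATF libraries, a gap that was not tested. Along the order of the 36 tested members only 3 of 35 neighbouring pairs had ranges that did not overlap: SLC38A2 above SLC1A5, SLC7A2 above SLC43A1, and SLC1A4 above SLC38A6. SLC3A2 and SLC38A2 could not be ordered by their ranges.

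The low end held carriers known from brain, kidney or gut, some of them also from liver, beside others such as the light chain SLC7A5 (0.292 RPKM). The dopamine carrier SLC6A3 had 68 counts in all 6 libraries together and the renal and hepatic GABA carrier SLC6A13 had 232. A further 23 members were not tested for lack of counts. None of them reached more than 12 counts in a library or 42 in all, the latter in SLC36A2, and 13 had fewer than 10. Among them were SLC1A2 (26 counts), a glutamate carrier of brain and of hepatocytes around the central vein, SLC38A5 (20), the close relative of SLC38A3, and SLC3A1 (13), the heavy chain of kidney and gut. The exons of SLC3A1 share 54.6% of their bases with the opposite-strand gene PREPL and a second gene. SLC36A3, SLC6A18, SLC7A13 and SLC7A3 were listed at 0 in every library, which allows up to 0.072 to 0.0918 CPM per library (3 counts).

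**Figure D2:**
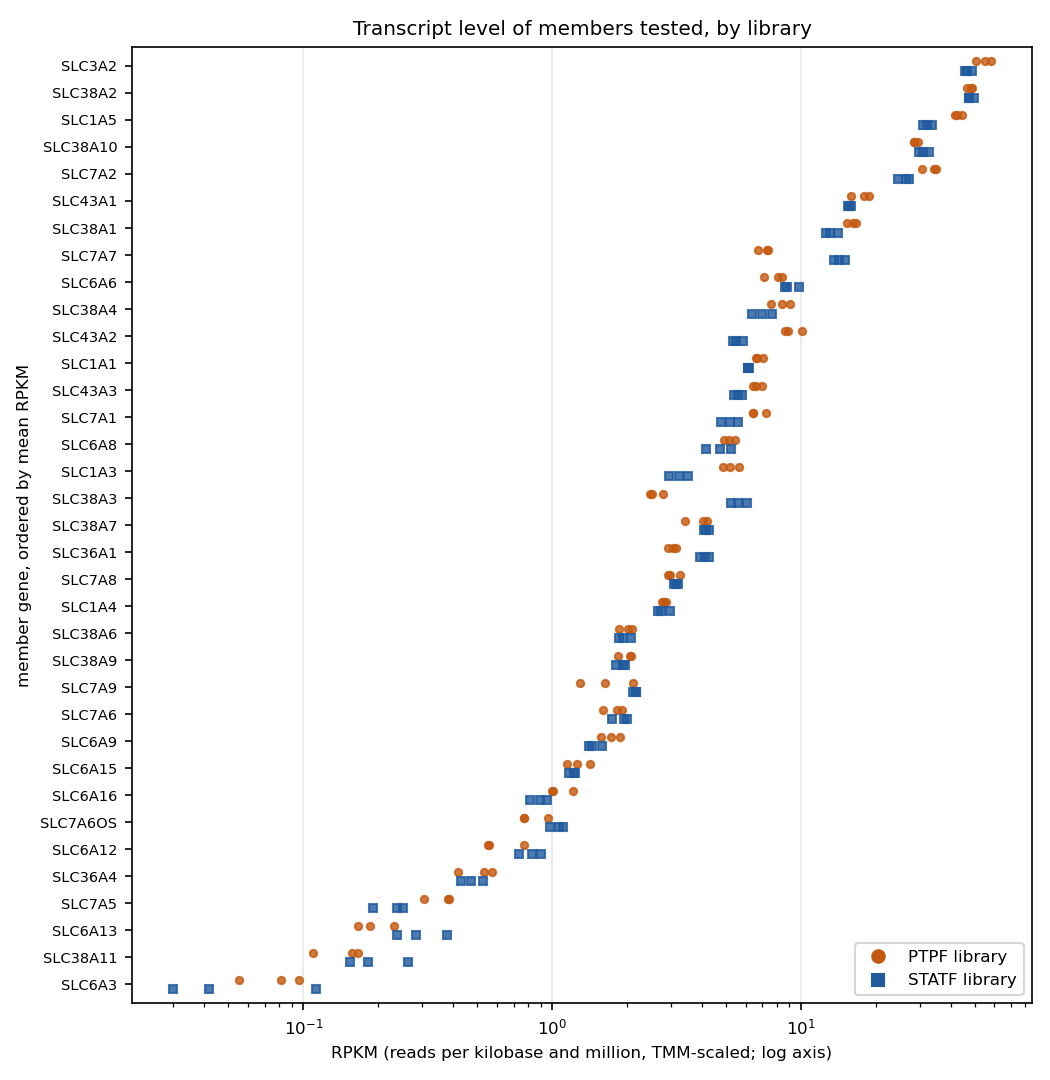
RPKM per library (x axis, log scale) of 35 members tested, ordered by their mean (y axis), with circles for PTPF and squares for STATF libraries. SLC3A2 (50.8 RPKM) and SLC38A2 (48.1 RPKM) lead, SLC6A3 is last, and the groups stand apart most in SLC7A7, SLC38A3, SLC43A2 and SLC1A3.

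Of the heteromeric exchangers, the shared heavy chain SLC3A2 was slightly higher in PTPF libraries, the light chain SLC7A7 was clearly lower, and the scarce light chain SLC7A5 was higher. SLC3A2 (chromosome 11, 62856102 to 62888875 of GRCh38, plus strand) was at 301, 285 and 262 CPM in PTPF and 253, 241 and 237 CPM in STATF libraries. All PTPF values were above all STATF values, by a small margin. The log2 fold change was 0.21 (edgeR adjusted p = 0.00902, SE 0.059), and the call ended without STATF replicate 2 (adjusted p 0.0528) or STATF replicate 3 (0.0679).

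SLC7A7, whose loss causes lysinuric protein intolerance, pairs with SLC3A2 and lies on chromosome 14 from 22773222 to 22829820 on the minus strand. It stood at 37.5, 37.8 and 34.5 CPM in PTPF and 77.0, 69.6 and 73.0 CPM in STATF libraries. The groups were far apart, with each STATF library above every PTPF library. SLC7A7 was 2.0-fold higher in STATF libraries, or -1.0 in log2 for PTPF over STATF (SE 0.061, edgeR adjusted p = 9.86e-13). No annotated exon base of SLC7A7 is shared with another gene.

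SLC7A5, the light chain that imports leucine and other large neutral amino acids, was scarce, with 300 counts in all. Its levels were 1.46, 1.82 and 1.81 CPM in PTPF and 1.2, 1.13 and 0.908 CPM in STATF libraries, which did not overlap. The log2 fold change was 0.65 (95% interval 0.19 to 1.12, edgeR adjusted p = 0.0393). This call ended in 8 of 14 alternative settings, among them DESeq2 (0.077), library totals (0.0679), no filter (0.0739), and the absence of PTPF replicate 2 (0.112) or 3 (0.11) or of STATF replicate 1 (0.0596), 2 (0.0759) or 3 (0.147). Its annotated copies SLC7A5P1 and SLC7A5P2 were listed at 0 in every library.

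SLC7A8, the second light chain for large neutral amino acids, was at 18.3 ± 1.07 CPM in PTPF and 18.8 ± 0.389 CPM in STATF libraries (SD, n = 3 each), with an interval of the log2 fold change from -0.19 to 0.11. SLC7A6, the relative of SLC7A7 found in many tissues, had a log2 fold change of -0.09 (interval -0.27 to 0.09). Opposite-strand genes, SLC7A6OS among them, share 55.6% of its exon bases. The strand setting of the counting is not given in the sources used here, so whether reads on these shared bases were kept apart is not known. SLC7A6OS itself had -0.33 (edgeR adjusted p = 0.0829), and passed without PTPF replicate 3 (0.0344) and with library totals (0.0389). SLC7A9, the cystine light chain that pairs with SLC3A1, had -0.37 (edgeR adjusted p = 0.0812) and passed without PTPF replicate 1 (0.00578), with library totals (0.0339) and with a replicate block (0.0383). SLC7A9 was at 5.49, 3.35 and 4.25 CPM in PTPF and 5.49, 5.66 and 5.66 CPM in STATF libraries. PTPF replicate 1 lay at the level of the STATF libraries.

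Summed per length, the 4 tested light chains of SLC3A2 among the members (SLC7A5, SLC7A6, SLC7A7 and SLC7A8) reached 12.2, 12.9 and 11.9 RPKM in PTPF and 20.1, 18.9 and 19.6 RPKM in STATF libraries. SLC7A7 made up 57.9% ± 2.0 (SD, n = 3) of this sum in PTPF and 73.0% ± 1.39 (SD, n = 3) in STATF libraries. The share of SLC7A8 was 24.8% ± 0.608 and 16.1% ± 0.436 (SD, n = 3 each). The level of SLC3A2 was 4.43 ± 0.312 times the light chain sum in PTPF and 2.41 ± 0.0652 times in STATF libraries (SD, n = 3 each). SLC7A11, the cystine and glutamate exchanger that also pairs with SLC3A2, is not in this sum. It was at 7.16 ± 0.656 RPKM in PTPF and 5.87 ± 0.465 RPKM in STATF libraries (SD, n = 3 each). With SLC7A11 in the sum, the ratio of SLC3A2 to it would be lower in both groups. The share of SLC7A7 was then 36.6% ± 1.07 in PTPF and 56.1% ± 1.35 in STATF libraries (SD, n = 3 each). These sums were chosen after the values were seen, follow from SLC7A7 for the most part, and were not tested.

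**Figure D3:**
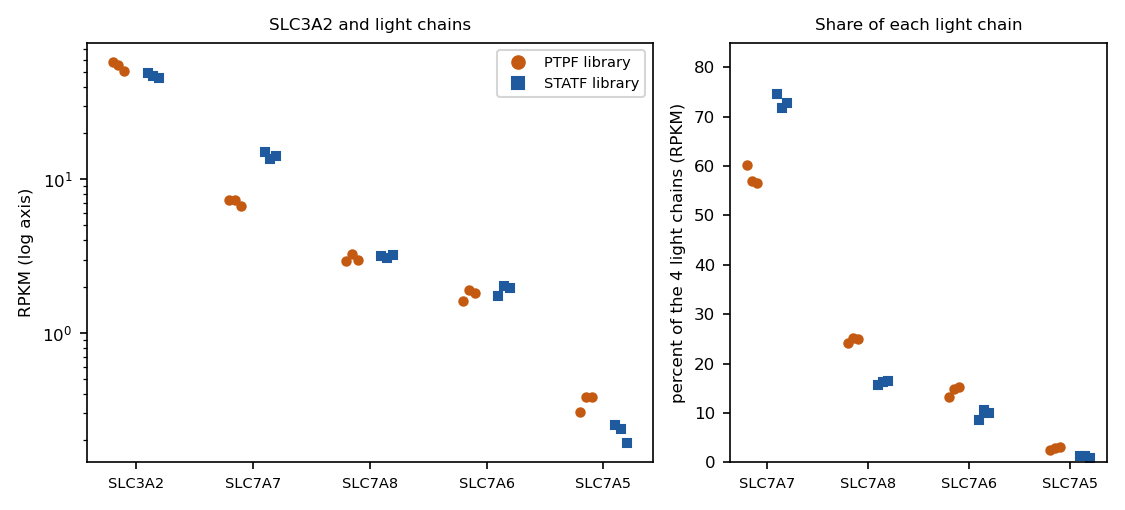
Left, RPKM per library (log axis) of SLC3A2 and of 4 light chains that pair with it; right, the share of each light chain in the sum of the 4 (percent), with circles for PTPF and squares for STATF libraries. SLC7A7 holds 72.99% of the sum on average in STATF libraries and 57.86% in PTPF libraries, and is the largest of these 4 light chains in all 6.

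Both cationic carriers tested were higher in PTPF libraries. SLC7A1, the widespread carrier of arginine and lysine, was at 49.4, 55.9 and 49.6 CPM in PTPF and 43.01, 39.9 and 36.7 CPM in STATF libraries. SLC7A2, its low-affinity relative in liver, was at 242, 277 and 272 CPM in PTPF and 195, 216 and 209 CPM in STATF libraries. In both genes the groups did not overlap. The log2 fold changes were 0.37 (SE 0.067, edgeR adjusted p = 0.000119) for SLC7A1 and 0.35 (SE 0.061, edgeR adjusted p = 7.33e-05) for SLC7A2. So SLC7A1 and SLC7A2, which carry cationic amino acids alone, and SLC7A7, which exchanges them, differed in opposite directions.

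Of the 4 SLC1 members tested 2 were higher and none lower. SLC1A3 (chromosome 5, 36606355 to 36688334, plus strand), a glutamate carrier best known from glia, was at 30.6, 35.3 and 32.6 CPM in PTPF and 18.6, 20.3 and 22.0 CPM in STATF libraries. The lowest PTPF library was above the highest STATF library by a wide gap, and the log2 fold change was 0.69 (edgeR adjusted p = 5.06e-08, SE 0.074). SLC1A5, which exchanges glutamine, serine and other neutral amino acids, was at 148, 142 and 139 CPM in PTPF and 107, 112 and 104 CPM in STATF libraries. These groups did not overlap either, with a log2 fold change of 0.41 (edgeR adjusted p = 2.36e-06, SE 0.055). SLC1A5 shares 23.8% of its exon bases with opposite-strand genes and had 27232 counts in all.

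SLC1A1, the glutamate and cysteine carrier of kidney and neurons, was at 26.3, 26.7 and 28.3 CPM in PTPF and 24.4, 24.4 and 24.9 CPM in STATF libraries. Its groups did not overlap, but the log2 fold change of 0.14 did not pass (edgeR adjusted p = 0.146). SLC1A4, the relative of SLC1A5 that carries serine and alanine, was at 19.5 ± 0.366 and 19.4 ± 1.15 CPM (SD, n = 3 each), with an interval of the log2 fold change from -0.14 to 0.16.

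The SLC38 family was split, with 2 members higher, 1 lower and 6 of 9 not past the test. SLC38A3 (chromosome 3, 50205246 to 50221486, plus strand) carries glutamine, histidine and asparagine in both directions and is a marker of hepatocyte glutamine exchange. It was at 9.82, 9.96 and 11.1 CPM in PTPF and 20.8, 24.2 and 22.1 CPM in STATF libraries. No PTPF library came near a STATF library. SLC38A3 was 2.18-fold higher in STATF libraries, or -1.12 in log2 for PTPF over STATF (SE 0.083, edgeR adjusted p = 4.95e-11), and it shares no exon base with another gene.

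The sodium-coupled carriers of alanine and other small neutral amino acids, SLC38A1, SLC38A2 and SLC38A4, were higher in 2 of 3 cases. SLC38A1 was at 153, 167 and 163 CPM in PTPF and 131, 141 and 126 CPM in STATF libraries. SLC38A4, which is largely a liver gene, was at 34.9, 31.5 and 37.5 CPM in PTPF and 26.4, 28.9 and 31.8 CPM in STATF libraries. SLC38A1 did not overlap between groups (log2 fold change 0.28, SE 0.057, edgeR adjusted p = 0.000578), while in SLC38A4 PTPF replicate 2 lay below STATF replicate 3 (0.25, SE 0.075, edgeR adjusted p = 0.0143). The SLC38A4 call ended without PTPF replicate 3 (0.111) or STATF replicate 1 (0.126) and with library totals (0.0676). SLC38A2, whose level is known to rise when cells are starved of amino acids, was at 307, 321 and 320 CPM in PTPF and 314, 312 and 329 CPM in STATF libraries. Its groups overlapped, with PTPF replicate 1 lowest and STATF replicate 3 highest, and had a log2 fold change of -0.01 with an interval from -0.13 to 0.10. Within the summed RPKM of SLC38A1, SLC38A2, SLC38A3 and SLC38A4, SLC38A3 made up 3.46% ± 0.166 in PTPF and 7.60% ± 0.516 in STATF libraries (SD, n = 3 each; chosen after the values were seen and not tested).

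SLC38A10 was at 220.1, 219.95 and 229 CPM in PTPF and 252, 239 and 231 CPM in STATF libraries. The groups just failed to overlap, and the log2 fold change of -0.11 did not pass (edgeR adjusted p = 0.173), except with library totals (0.0185). SLC38A7 and SLC38A9, the lysosomal carriers of glutamine and of arginine, had log2 fold changes of -0.10 (interval -0.25 to 0.04) and 0.07 (interval -0.09 to 0.23). SLC38A6 (0.03) and SLC38A11 (-0.47, on 211 counts in all) did not pass either.

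Of the proton-coupled SLC36 carriers, SLC36A1, which moves small amino acids out of the lysosome, was lower. It was at 20.5, 21.3 and 22.0 CPM in PTPF and 29.9, 28.7 and 27.4 CPM in STATF libraries. The spread within each group was small beside the gap between them, with a log2 fold change of -0.43 (edgeR adjusted p = 2.51e-05, SE 0.068). SLC36A4, its high-affinity relative, had 0.09 (interval -0.21 to 0.38).

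All 3 SLC43 members had higher means in PTPF libraries, and 2 passed. SLC43A2 (chromosome 17, 1569267 to 1628886, minus strand), a facilitated carrier through which cells release leucine, valine, phenylalanine and methionine, was at 94.6, 91.7 and 107 CPM in PTPF and 56.8, 62.3 and 58.1 CPM in STATF libraries. The groups were well apart, with a log2 fold change of 0.73 (edgeR adjusted p = 7.88e-10, SE 0.062). SLC43A3, which despite its family carries purine bases, was at 29.7, 31.4 and 29.1 CPM in PTPF and 25.3, 26.3 and 24.2 CPM in STATF libraries. It did not overlap between groups (log2 fold change 0.25, SE 0.066, edgeR adjusted p = 0.00663), and its call ended with library totals (0.0532). SLC43A3 shares 29.9% of its exon bases with a same-strand gene that had 4 counts.

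SLC43A1, which carries the same amino acids as SLC43A2, was at 66.4, 56.4 and 63.4 CPM in PTPF and 56.4, 54.6 and 55.2 CPM in STATF libraries. The groups were just apart, with PTPF replicate 2 at the level of STATF replicate 1. The log2 fold change of 0.16 did not pass (edgeR adjusted p = 0.0583), but did without PTPF replicate 2 (0.00417), with upper quartile scaling (0.0445), with at least 50 counts in 3 libraries (0.0484) and with a replicate block (0.0437).

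Among the 9 tested SLC6 members, which use sodium and chloride to take up osmolytes, transmitters and some amino acids, none was higher. SLC6A6, which takes up taurine for bile acid conjugation and cell volume control, was lower, at 58.8, 69.6 and 66.8 CPM in PTPF and 81.0, 71.2 and 72.9 CPM in STATF libraries. The groups were separate by less than the spread within them, with a log2 fold change of -0.21 (edgeR adjusted p = 0.0229, SE 0.065), and the call ended without PTPF replicate 1 (0.0975) or STATF replicate 1 (0.187).

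Further SLC6 members tested did not pass. SLC6A8, the creatine carrier, was at 28.3 ± 1.41 and 25.9 ± 2.96 CPM (SD, n = 3 each), and the glycine carrier SLC6A9 had a log2 fold change of 0.22 (edgeR adjusted p = 0.152). The betaine carrier SLC6A12 had -0.39 (edgeR adjusted p = 0.0747), and passed without PTPF replicate 3 (0.0186) and with library totals (0.0395). SLC6A13 had -0.61 (interval -1.17 to -0.05, edgeR adjusted p = 0.114), SLC6A15 0.08, SLC6A16 0.28 and SLC6A3 0.29.

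**Figure D4:**
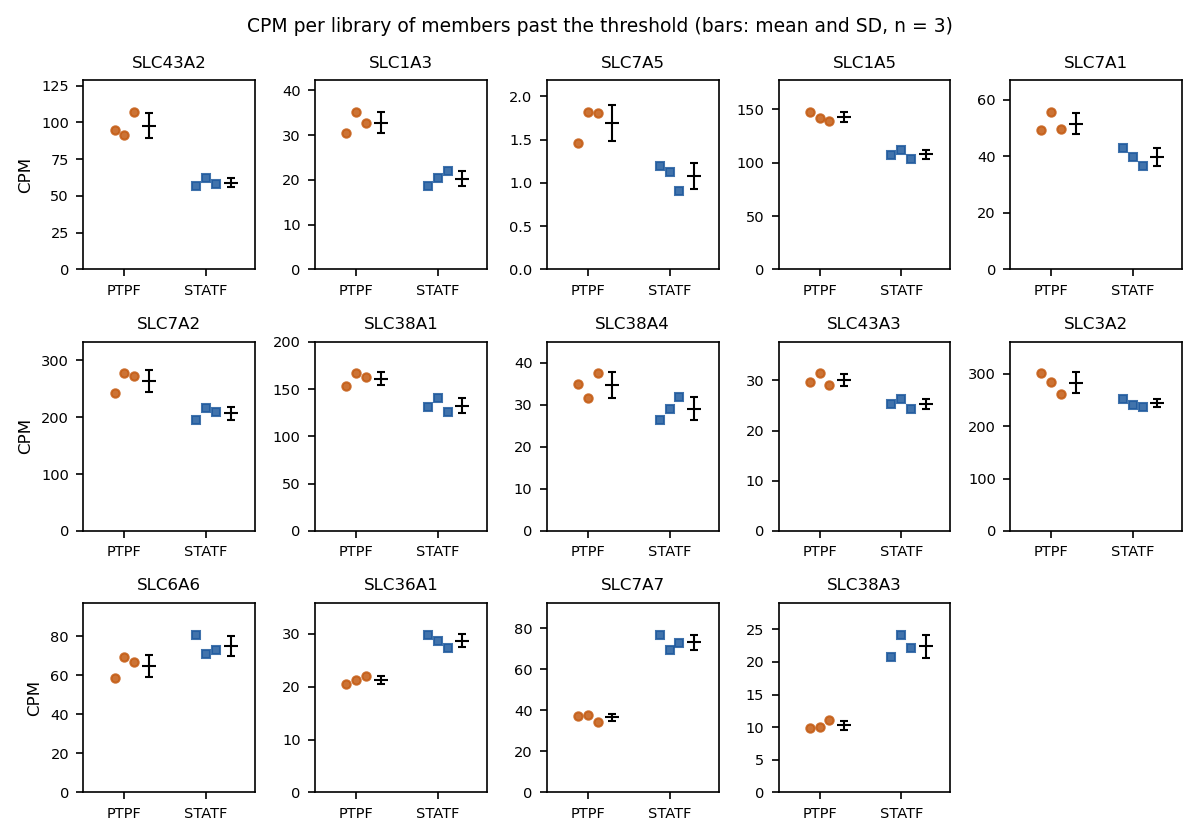
CPM per library (y axis, from 0) of 14 members past the threshold, ordered from the highest to the lowest log2 fold change, with circles for PTPF, squares for STATF libraries and bars for mean and SD (n = 3). The groups are apart in 13 of the 14 panels and overlap in SLC38A4.

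Genes around the transporters were taken from 4 lists, which were drawn up with earlier results of these data known and are described by their counts alone. Of 38 amino acid response genes tested, which ATF4 or the uncharged tRNA sensor govern or which charge tRNAs, 16 were higher and 2 lower in PTPF libraries, beside 10.1% and 11.6% of all genes, with a median log2 fold change of 0.13. ATF4 itself was at 279 ± 15.1 CPM in PTPF and 220.5 ± 5.98 CPM in STATF libraries (SD, n = 3 each; log2 fold change 0.34, edgeR adjusted p = 5.73e-05). DDIT4, an inhibitor of mTORC1, had 0.45, the glutathione-degrading CHAC1 0.46, the stress factor DDIT3 0.34 and the threonine tRNA synthetase TARS 0.24. WARS, the tryptophan tRNA synthetase and also an interferon-induced gene, went the other way, at 84.0 ± 4.91 and 227.9 ± 15.1 CPM (SD, n = 3 each; log2 fold change -1.44), as did FGF21 (-0.76), named after its value was seen. With library totals 9 were higher and 3 lower.

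Other amino acid and peptide carriers had 3 of 24 higher and 9 lower, together 50% beside 21.6% of all genes, with a median of -0.05. With library totals 1 was higher and 9 were lower. Without STATF replicate 3 the total of called genes was 7 in place of 12. The mitochondrial glutamate carriers SLC25A18 (49.8 ± 2.43 against 96.1 ± 3.2 CPM; SD, n = 3 each) and SLC25A22 (log2 fold change -0.46) were lower. The lysosomal histidine and peptide carrier SLC15A3 had -1.28, the mitochondrial serine carrier family member SFXN3 -0.54 and the lysosomal cysteine carrier MFSD12 -0.26. SLC7A11 had 69.0 ± 6.33 CPM in PTPF and 56.6 ± 4.49 CPM in STATF libraries (SD, n = 3 each) and passed as higher (log2 fold change 0.29, edgeR adjusted p = 0.00284).

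Amino acid sensing genes at the lysosome had 2 of 40 higher and 5 lower, together 17.5%, which is near the 21.6% of all genes. The largest differences were in FNIP2 (log2 fold change 0.40), a partner of folliculin, SESN3 (-0.30), a sestrin, and the lysosomal gene regulators MITF (-0.43) and TFEB (-0.36). SEC13 had 0.21 and RPTOR, the defining subunit of mTORC1, -0.22. With library totals 1 was higher and 9 were lower, and without PTPF replicate 1 the total of called genes was 4.

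Amino acid enzymes went both ways, 10 higher and 10 lower of 52, together 38.5% beside 21.6% of all genes. With library totals 7 were higher and 18 lower. SDS, which turns serine into pyruvate, was at 22.2 ± 0.769 CPM in PTPF and 7.26 ± 0.216 CPM in STATF libraries (SD, n = 3 each; log2 fold change 1.61, edgeR adjusted p = 2.31e-14). ALDH18A1, the first enzyme of proline synthesis, had 0.49. GATM, the first enzyme of creatine synthesis, had -0.52, the aspartate aminotransferase GOT1 -0.43 and the tyrosine-degrading HPD -0.42.

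**Figure D5:**
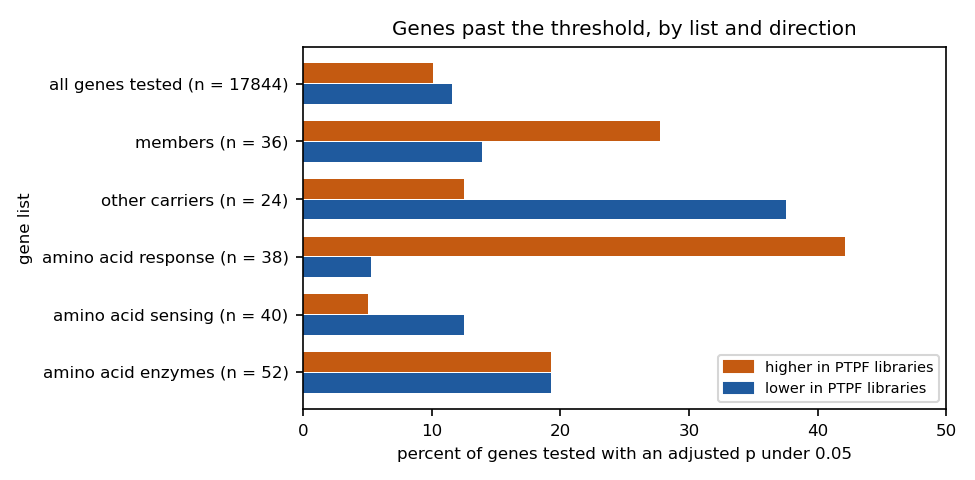
Share of tested genes with an edgeR adjusted p under 0.05 (x axis, percent), higher (orange) and lower (blue) in PTPF libraries, for all genes, the members and 4 further lists (y axis, with the number tested). All genes stand at 10.1% higher and 11.6% lower; the amino acid response list has 16 of 38 higher, and the other carriers have 9 of 24 lower.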

How the data were processed

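The members and the gene lists were chosen with earlier results of these data known. The table deposited by the authors holds unnormalized counts for 58735 genes in 6 libraries, and the submitters' processing notes name CASAVA 1.8, HISAT2 2.0.5, featureCounts 1.5.0-p3 and GRCh38. Strand setting and multi-mapping rules are not stated there, so overlapping genes are reported with their shared exon bases, computed from GENCODE 29, in which all 58735 identifiers have the same position. Libraries were grouped by title. Total counts were 33225627 to 40796767, and their number limits the precision of low genes. The limit for a count of 0 covers counting error only, as PCR copies were not told apart by identifiers.

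Genes were filtered with filterByExpr, scaled with TMM and tested with the robust quasi-likelihood method of edgeR 4.0.16 (R 4.3.3). The model held the group alone, and p-values were adjusted by Benjamini-Hochberg over all 17844 genes, with calls under 0.05. SE and 95% intervals come from the fold change and the F statistic. RPKM used the deposited gene length. Values in every library are given for members past the threshold and for the 4 most expressed members that did not pass, with SLC7A9 added after its values were seen. From each other list up to 6 genes with the smallest adjusted p are named. A few genes, 1 member among them, are counted in the totals but not reported here. Alternatives were other scalings and filters, DESeq2 1.42.0, limma-voom (limma 3.58.1), a replicate block, each library left out and mitochondrial genes left out. On simulated counts for this comparison (17844 genes, 17625 of these past the filter, 200 changed) edgeR recovered 90% of 50 genes changed 1.5-fold and 96% of 50 changed 2-fold, and 10.2% of calls were false. The changed genes were drawn from those at a mean above 1 CPM, so recovery among lower genes was not tested. Replicates of a group all differed by more than Poisson noise, at a chi-square of 4.01 to 10.9 for each degree of freedom. Annotation and figures used Python 3.11.15 and pandas 2.3.3.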

Additional observations from a re-analysis of the deposited data

How the results depend on the processing

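Of the 15 members called, 9 were called in all 15 alternative settings: SLC1A3, SLC1A5, SLC36A1, SLC38A1, SLC38A3, SLC43A2, SLC7A1, SLC7A2 and SLC7A7. The other 6 lost the call in at least 1 setting, and none of the 15 changed sign. With library totals as the only scaling 9 members were called lower in place of 5 and the median log2 fold change of members was 0.011 in place of 0.074. This scaling leaves out the TMM factors, which were 0.953 to 0.999 in PTPF and 1.015 to 1.03 in STATF libraries. Leaving out 1 library at a time gave 12 to 15 called members, 8 to 10 of them higher and 4 to 6 lower, member medians of 0.024 to 0.077, 2830 to 3808 calls over all genes, 7 to 11 called genes among the other carriers (7 without STATF replicate 3) and 4 to 10 in the sensing list (4 without PTPF replicate 1). With a replicate block 17 members were called, 11 higher and 6 lower, with SLC43A1 and SLC7A9 added, and 4145 genes over all. Whether the replicate numbers pair the libraries could not be told from these values. Same-numbered deviations from the group means correlated at 0.0492, 0.0822 and -0.00739. PTPF replicate 2 correlated best with STATF replicate 2, and PTPF replicate 1 with STATF replicate 1 by a small margin (0.0492 beside 0.0488). PTPF replicate 3 correlated best with STATF replicate 2 (0.0272). Leaving out SLC7A6OS, chosen after the data were seen, could only give the same 15 calls, since that gene was not called and the fit was not repeated. The sign turned in 7 genes that passed in no setting. Library totals gave -0.054 for SLC1A4, -0.035 for SLC38A6, -0.061 for PTPRD. PTPRD was at -0.0058 with no filter, -0.0038 with limma-voom, -0.0032 with the replicate block. With 1 library left out at a time the log2 fold changes ran from -0.026 to 0.012 for SLC38A2, from -0.0098 to 0.15 for SLC6A15, from -0.0070 to 0.077 for SLC38A6, from -0.076 to 0.089 for PTPRD, from -0.023 to 0.058 for SLC1A4, from -0.0080 to 0.22 for SLC36A4, from -0.025 to 1.09 for SLC6A3. Members with few counts had wide intervals, as SLC6A3 with 68 counts (-0.73 to 1.31) and SLC7A5 with 300, where smaller differences were not detectable at this depth.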
